A study of Homo sapiens with 4 samples.

Results

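The mitochondrial respiratory chain and ATP synthase, which together carry out oxidative phosphorylation (OXPHOS), were followed through 96 of the 18449 gene symbols in the count table of 2 AT/RT-MYC cell lines. Members were chosen by a rule on symbols, with earlier results of these data known. The rule took every gene that starts with *MT-*, *NDUF* (without the *NDUFAF* assembly factors), *UQCR*, or *ATP5*, and *COX* followed directly by a digit from 4 to 8. This gave 13 mitochondrial-encoded genes and 83 nuclear-encoded genes, of which 82 were tested because *NDUFC2-KCTD14*, a readthrough gene, had no count in any library. By textbook role, 35 tested nuclear-encoded members belong to complex I, 9 to complex III, 16 to complex IV, and 18 to complex V, and 4 are no subunits of these complexes. Genes of the sex chromosomes had been removed from the table, so that *NDUFA1*, *NDUFB11*, and *COX7B* were not analysed here.

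Atypical teratoid/rhabdoid tumors (AT/RT) are brain tumors of early childhood, and BT-16 and CHLA-266 are established cell lines of the AT/RT-MYC subtype. The untreated libraries came from each line in its growth medium without drug. The treated libraries came from cells of the same line that received doxorubicin (1 µM), etoposide (5 µM), and vincristine (1 µM) on consecutive days, and were harvested when surviving cells had regrown after most of the culture had died. Doxorubicin and etoposide act on topoisomerase II and vincristine on microtubules. Each line gave 1 library per condition, so that there were 4 libraries in all, 2 untreated and 2 treated, the lines served as the replicates, and *p* values measure the spread between 2 lines. All libraries carry the same batch label. Because treated cells are those that survived and regrew, selection of cells and a change within cells cannot be told apart, nor can, in RNA of whole cultures, fewer cells of one kind and less RNA per cell.

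Complex I takes electrons from NADH, complex III passes them from ubiquinol to cytochrome *c*, and complex IV hands them to oxygen, and all 3 pump protons across the inner mitochondrial membrane. Complex V, the ATP synthase, lets the protons flow back and makes ATP. The mitochondrial DNA (mtDNA) encodes at least 1 membrane-embedded core subunit of each of these complexes. It is transcribed inside the organelle into long precursors that are cut into single messages. The nucleus encodes all other subunits, which are made in the cytosol and imported, so that each complex is assembled from the products of both genomes.

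BT-16 gave a total of 75087193 counts before and 51489712 after treatment and CHLA-266 one of 66192504 and 49849257, so the treated libraries were smaller. Of the 18066 genes tested, 16.1% were higher and 19.1% lower after treatment in edgeR (quasi-likelihood test, Benjamini-Hochberg adjusted *p* below 0.05), and the log2 fold changes of all genes had a median of 0.24. Among the 12620 genes that reached 10 counts in each library, 12.3% were higher and 27.3% lower (39.6% in either direction), with a median of -0.18. *SMARCB1*, which AT/RT usually lose, was not absent and had between 827 and 1394 counts in the 4 libraries. Olfactory receptor genes, which such cells should not express, summed to 6.67 CPM (counts scaled to the total of the library) before and 107 after treatment in BT-16, and to 7.95 and 74.8 in CHLA-266. This signal was higher after treatment in both lines, and its part in the values of the members was not tested.

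Mitochondrial-encoded messages took a larger and nuclear-encoded messages a smaller share of the libraries after treatment. The 13 mitochondrial-encoded genes held 3.59% of all counts before and 10.5% after treatment in BT-16, against 4.98% and 8.93% in CHLA-266. The 82 nuclear-encoded members held 0.898% before and 0.695% after it in BT-16, against 0.867% and 0.608% in CHLA-266. Neither measure overlapped between treated and untreated libraries, and the nuclear-encoded share was also lower when counts of mitochondrial-encoded genes were left out of the total (0.932% and 0.776% in BT-16, 0.912% and 0.668% in CHLA-266). The ratio of mitochondrial-encoded to nuclear-encoded counts thus went from 4.00 to 15.1 in BT-16 and from 5.74 to 14.7 in CHLA-266. These shares have no test, because 2 libraries against 2 cannot give an exact two-sided permutation *p* below 0.333.

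**Figure D1:**
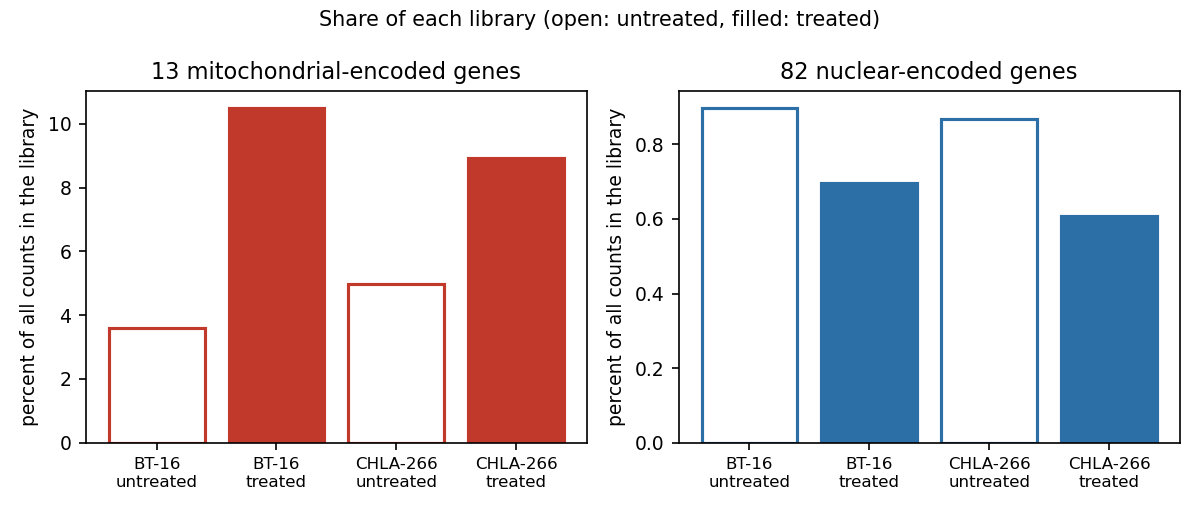
Share of all counts of each library (percent) held by the 13 mitochondrial-encoded genes (left) and the 82 nuclear-encoded members (right), with open bars for untreated and filled bars for treated cells and 1 bar per library. The mitochondrial-encoded share is higher in both treated libraries (10.5% and 8.93% against 3.59% and 4.98%), and the nuclear-encoded share is lower (0.695% and 0.608% against 0.898% and 0.867%).

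For most genes, the direction followed the genome that encodes the subunit. The log2 fold change was negative for 2 of the 13 mitochondrial-encoded genes and positive for 11 of the 82 nuclear-encoded members. Of the 13 mitochondrial-encoded genes, 10 (76.9%, against 16.1% of all genes) were upregulated after treatment and none was downregulated, with a median log2 fold change (log2FC) of 0.82. Of the 82 nuclear-encoded members, 46 (56.1%, against 19.1% of all genes) were downregulated and none was upregulated, with a median of -0.67. The difference between both medians was 1.49 on the log2 scale over both lines, 1.79 within BT-16, and 1.22 within CHLA-266. In normalized counts, both treated libraries lay above both untreated ones for 10 mitochondrial-encoded genes, and below them for 68 nuclear-encoded members, while 40.2% and 32.3% of all genes were separated in these directions. DESeq2, as an alternative tool with which 22.8% of all genes were higher and 19.6% lower, kept the 10 upregulated genes and 45 of the 46 downregulated members and called 1 nuclear-encoded member, *COX6B2*, higher. Scaling mattered for the nuclear-encoded members. With library totals in place of TMM factors, 30 of the 46 were still downregulated and the all-gene median was 0.46, and with upper-quartile scaling 19 were, with an all-gene median of 0.59. The share of all genes called lower with either scaling is not given, so these numbers have no background.

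**Figure D2:**
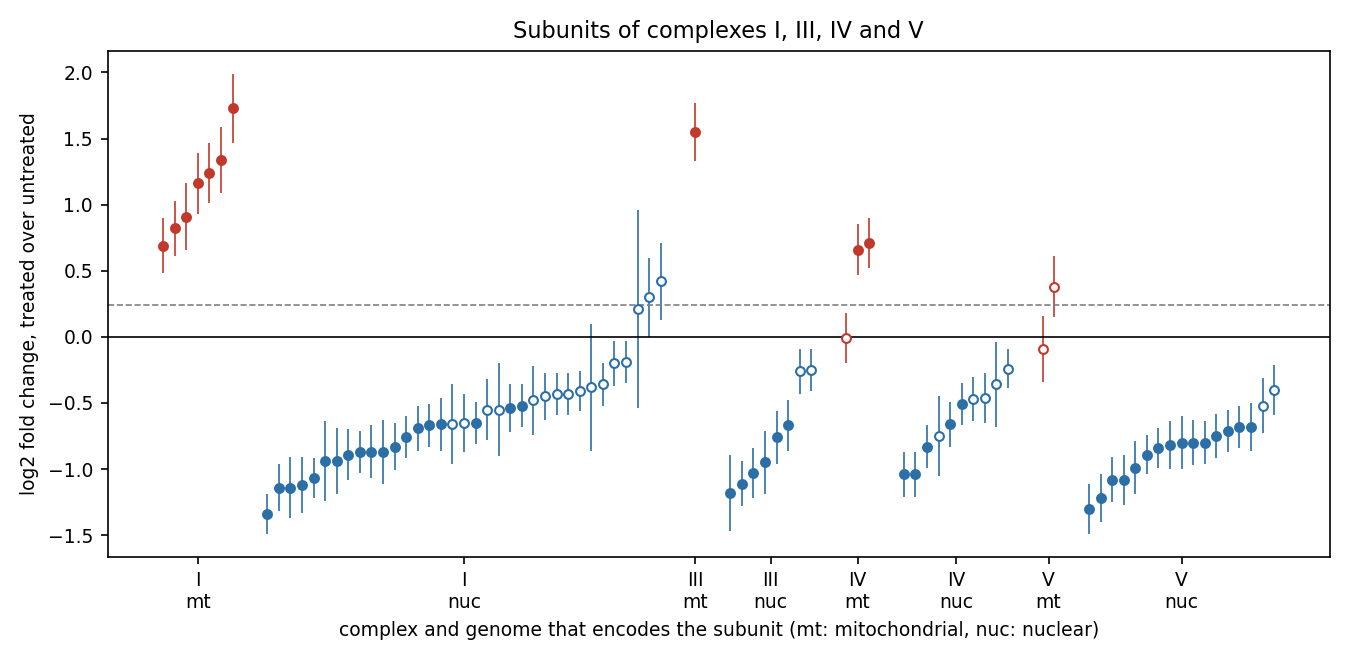
Log2 fold change (treated over untreated, edgeR) of each subunit of complexes I, III, IV, and V, sorted within each complex and genome of origin, with bars of 1 standard error (SE), filled points for genes past the adjusted *p* threshold of 0.05, and all paralogs left out (those of complex IV, *UQCRHL*, and *ATP5MGL*). The dashed line is the median of all genes (0.24). Filled red points (mitochondrial-encoded) lie between 0.66 and 1.73 and filled blue points (nuclear-encoded) between -1.34 and -0.51.

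The 7 mitochondrial-encoded subunits of complex I, which form its proton-pumping membrane arm, were all upregulated, by log2FCs from 0.69 to 1.73. *MT-ND6* (ENSG00000198695, chrM 14149 to 14673 of hg38, minus strand) had 63399 counts before and 253231 after treatment in BT-16, and 95375 before and 198239 after it in CHLA-266. Both treated libraries were above both untreated ones, and its log2FC of 1.73 (SE 0.26, adjusted *p* = 0.00162 in edgeR) was the largest of the 13 genes. It is the only one of them on the minus strand, and the strand setting of the counting is not stated, so that its reads and those of antisense RNA cannot be told apart. *MT-ND5* (chrM 12337 to 14148) had 285568 counts before and 832834 after treatment in BT-16, against 394584 and 639744 in CHLA-266, a log2FC of 1.34 (SE 0.25, adjusted *p* = 0.00429 in edgeR). *MT-ND2* (chrM 4470 to 5511) went from 133250 to 348092 counts and from 171764 to 265188 counts (log2FC 1.24). *MT-ND4* (chrM 10760 to 12137) went from 405710 to 952854 and from 536759 to 839960 counts (log2FC 1.16). In all 7 genes the smaller treated value exceeded the larger untreated value. The other 3 subunits were upregulated less, with log2 ratios within CHLA-266 of 0.44 (*MT-ND1*), 0.52 (*MT-ND4L*), and 0.38 (*MT-ND3*). *MT-ND1* (chrM 3307 to 4262) had 147691 counts before and 333347 after treatment in BT-16, against 202464 and 231849 in CHLA-266 (log2FC 0.91, SE 0.25). *MT-ND4L* (chrM 10470 to 10766) had 36198 counts before and 68047 after treatment in BT-16, against 46347 and 56217 in CHLA-266 (0.82), and *MT-ND3* (chrM 10059 to 10404) 17858 and then 30980 counts in BT-16, against 23452 and 25732 in CHLA-266 (0.69, SE 0.21). Their adjusted *p* values in edgeR were 0.0213, 0.0163, and 0.0330.

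*MT-CYB*, cytochrome *b* and the sole mitochondrial-encoded subunit of complex III (ENSG00000198727, chrM 14747 to 15887), had 193664 counts before and 615882 after treatment in BT-16, and 239555 before and 464152 after it in CHLA-266. Its log2FC of 1.55 (SE 0.22, adjusted *p* = 0.00138 in edgeR) was the largest after *MT-ND6*, and the groups did not overlap.

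The catalytic core of complex IV consists of 3 mitochondrial-encoded subunits, which did not move as one. *MT-CO1*, the heme-bearing subunit (chrM 5904 to 7445), was the most counted of all genes in each of the 4 libraries. It had 723148 counts before and 1059465 after treatment in BT-16, against 759377 and 982762 in CHLA-266 (log2FC 0.71, SE 0.19, adjusted *p* = 0.0230 in edgeR). *MT-CO2*, which receives electrons from cytochrome *c* (chrM 7586 to 8269), had 282509 (untreated) and 420719 (treated) counts in BT-16, against 305179 and 367617 in CHLA-266 (log2FC 0.66, adjusted *p* = 0.0261 in edgeR). *MT-CO3* (chrM 9207 to 9990) did not pass the threshold. It had 195012 counts before and 195971 after treatment in BT-16, against 215662 and 150096 in CHLA-266, so that the groups overlapped (log2FC -0.01, SE 0.19, adjusted *p* = 0.965 in edgeR). Counts of *MT-CO3* relative to *MT-CO1* were 0.270 before and 0.185 after treatment in BT-16, against 0.284 and 0.153 in CHLA-266, lower in both treated libraries.

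Neither mitochondrial-encoded subunit of complex V passed the threshold. *MT-ATP6*, which forms part of the proton channel (chrM 8527 to 9207), had 142462 counts before and 213699 after treatment in BT-16, against 196500 and 162758 in CHLA-266 (log2FC 0.38, SE 0.23, adjusted *p* = 0.233 in edgeR). It was called higher with upper-quartile scaling (0.72, adjusted *p* = 0.0435 in edgeR) and in DESeq2 with the cell line as a block (0.47, adjusted *p* = 0.0327). *MT-ATP8* (chrM 8366 to 8572) had 70540 counts before and 75585 after treatment in BT-16, against 109477 and 68518 in CHLA-266 (log2FC -0.09, adjusted *p* = 0.784 in edgeR). Groups overlapped for both genes, and the direction of *MT-ATP8* and of *MT-CO3* depended on the scaling. The values of *MT-ATP6* and *MT-ATP8* are not independent, since their reading frames share 46 bases (chrM 8527 to 8572), as those of *MT-ND4L* and *MT-ND4* share 7 (chrM 10760 to 10766), and each pair lies on a common message. The 2 overlaps are shown on the plus strand of hg38 with the shared bases in capitals and 12 bases on either side, because reads from them cannot be assigned to a single gene.
MT-ATP8/MT-ATP6: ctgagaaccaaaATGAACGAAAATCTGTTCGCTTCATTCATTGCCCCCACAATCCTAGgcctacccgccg
MT-ND4L/MT-ND4: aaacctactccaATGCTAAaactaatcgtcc

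Along the mtDNA, the size of the response was not uniform. From *MT-ND1* to *MT-ND2* the log2FC was 0.91 and 1.24, then it was lower at *MT-CO1* and *MT-CO2*, smallest in the neighbouring *MT-ATP8*, *MT-ATP6*, and *MT-CO3* (-0.09 to 0.38), and then larger from *MT-ND3* (0.69) through *MT-ND4L*, *MT-ND4*, and *MT-ND5* to *MT-CYB* (1.55). In both lines *MT-ATP8* and *MT-CO3* had the smallest and *MT-CYB* and *MT-ND6* the largest ratios. Within BT-16 the log2 ratio ranged from 0.26 (*MT-CO3*) to 2.25 (*MT-ND6*), and within CHLA-266 from -0.43 (*MT-ATP8*) to 1.30 (*MT-ND6*). Across the 13 genes the ratios of both lines had a Spearman correlation of 0.86 and a Pearson correlation of 0.92, which is a description, as these genes come from a few shared precursors and the same 4 libraries. All 13 ratios were higher in BT-16 than in CHLA-266, a difference that was not tested, because each line had 1 library per condition. Gene length and log2FC had a Spearman correlation of 0.47 (n = 13 genes).

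**Figure D3:**
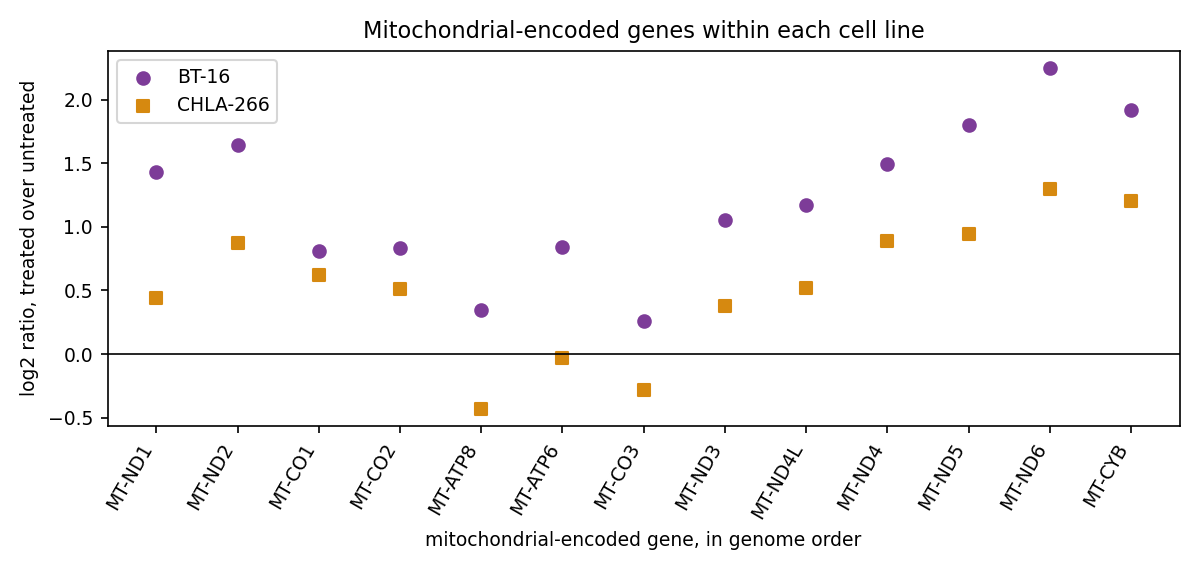
Log2 ratio of treated to untreated counts (TMM-normalized, 0.5 counts added) of the 13 mitochondrial-encoded genes in the order of the mtDNA, with circles for BT-16 and squares for CHLA-266 and 1 library per line and condition. Each circle lies above its square, the lowest symbols of either line are at *MT-ATP8* and *MT-CO3*, and the highest are at *MT-ND6* (2.25 and 1.30).

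Per kilobase of exon, levels of the mitochondrial-encoded genes differed among themselves by up to 9.09-fold within a library. *MT-CO1* had 6800 normalized CPM per kilobase before and 11900 after treatment in BT-16, against 8000 and 12300 in CHLA-266. *MT-ND3* had the lowest level in each library (748, 1550, 1100, and 1430 in the same order). The order of levels was largely shared by the lines but differed between the conditions. By counts per kilobase, *MT-CO1* and *MT-CO2* ranked within the first 3 of the 13 genes in every library. *MT-ND6* went from rank 12 and 10 in untreated BT-16 and CHLA-266 cells to rank 5 in both treated libraries, and *MT-CYB* from 7 and 9 to 4. In the other direction, *MT-CO3* went from rank 5 and 6 to rank 11 and *MT-ATP6* from 6 and 5 to 10. Relative to the median of the 12 genes on the plus strand, *MT-ND6* counts per kilobase were 0.637 and 0.737 in the untreated and 1.35 and 1.29 in the treated libraries. Relative to its neighbour *MT-ND5* they were 0.766 and 0.834 in the untreated and 1.05 and 1.07 in the treated libraries.

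Calls of mitochondrial-encoded genes leaned on untreated BT-16 cells, the library with the smallest mitochondrial-encoded share. Without it, 5 of the 10 genes (*MT-ND2*, *MT-ND4*, *MT-ND5*, *MT-ND6*, and *MT-CYB*) remained upregulated, and all 10 kept a positive log2FC. The share of all genes called higher without this library is not given. The same 10 genes were upregulated with the cell line as a block, with which 17.9% of all genes were higher.

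Per kilobase of annotated exon, nuclear-encoded subunits had a lower level than mitochondrial-encoded ones, and the distance grew after treatment. Here and below, the length joins all annotated exons of a gene, which can be far longer than 1 message (12600 bases for *UQCRB*). Levels per length of nuclear-encoded genes are therefore understated to an unequal degree, and the size of the distance between the genomes is not a measure of messages. The median of the 70 nuclear-encoded subunits without paralogs was 24.8 normalized CPM per kilobase before and 15.6 after treatment in BT-16, against 22.1 and 13.6 in CHLA-266. The median of the 13 mitochondrial-encoded genes was 2460, 6320, 3540, and 6370 in the same order. Of all 82 nuclear-encoded members, 70 were lower after treatment in both lines, 9 higher in both, and 3 moved in opposite directions. The 77 members with at least 10 counts in every library had a median log2FC of -0.68, and all 46 downregulated members were among them. When edgeR was fitted to genes with at least 10 counts in each library alone, 35 of the 46 remained downregulated and the median was -0.49. Without untreated BT-16 cells 29 of the 46 remained downregulated (10 of complex I and 3 of complex III), and without untreated CHLA-266 cells 32. For the fit to genes with at least 10 counts and the fits without a library, shares of all genes are not given. With the cell line as a block, 56 of the 82 were downregulated, against 23.7% of all genes.

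Nuclear-encoded subunits of complex I comprise a catalytic core, which binds NADH and carries the iron-sulfur clusters, and accessory subunits, which surround it. Of the 7 core subunits 3 were downregulated (42.9%, median -0.48), and of the 28 accessory subunits 16 (57.1%, median -0.65). The shares of all genes were 19.1%, or 27.3% with at least 10 counts in each library. *NDUFS6*, an accessory subunit of the electron-input module (ENSG00000145494, hg38 chromosome 5, 1801407 to 1816048, plus strand), had 8905 counts before and 3010 after treatment in BT-16, and 7932 before and 2573 after it in CHLA-266. The groups were far apart, and its log2FC of -1.34 (SE 0.15, adjusted *p* = 0.000424 in edgeR) was the largest decrease of all 82 members. *NDUFA6* (ENSG00000184983, chromosome 22, 42085526 to 42090884, minus strand) had 10410 counts before and 4095 after treatment in BT-16, against 9500 and 3858 in CHLA-266 (log2FC -1.07, SE 0.15, adjusted *p* = 0.00131 in edgeR). *NDUFAB1*, the mitochondrial acyl carrier protein (ENSG00000004779, chromosome 16, 23581014 to 23596316, minus strand), had 10804 (untreated) and 4189 (treated) counts in BT-16, against 8048 and 2997 in CHLA-266 (log2FC -1.14, SE 0.18, adjusted *p* = 0.00228 in edgeR). The subunits with the highest level per length, *NDUFS5* and *NDUFB7*, were close to the median of the complex. *NDUFS5* went from 37640 to 17814 counts (BT-16) and from 34297 to 19464 (CHLA-266) (log2FC -0.69, adjusted *p* = 0.0154 in edgeR), and *NDUFB7* from 10818 to 5731 and from 9039 to 4784 counts (-0.67, adjusted *p* = 0.0120 in edgeR).

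Among the core subunits of complex I, named here after their values were seen, the downregulated ones were *NDUFV1*, which holds the NADH site, *NDUFS3*, and *NDUFS8*, which carries iron-sulfur clusters. *NDUFV1* had 10839 counts before and 4967 after treatment in BT-16, against 9060 and 4859 in CHLA-266 (log2FC -0.76). *NDUFS3* had 5397 (untreated) and 2590 (treated) counts in BT-16, against 4062 and 1886 in CHLA-266 (-0.83), and *NDUFS8* 6735 and then 2938 counts in BT-16, against 4065 and 1780 in CHLA-266 (-0.94). *NDUFS1*, which did not pass the threshold, had a log2FC of -0.41 with an adjusted *p* in edgeR of 0.0656, and passed with the cell line as a block (0.0217). *NDUFS7* (log2FC -0.48) and *NDUFV2* did not pass it either. *NDUFV2* had 465 counts before and 616 after treatment in BT-16, against 540 and 441 in CHLA-266, which overlapped between the groups (log2FC 0.30).
The other 11 downregulated accessory subunits, among which *NDUFC1* (3700, 1375, 2360, and 939 counts, log2FC -1.14) and *NDUFB6* (2313, 845, 1725, and 710 counts, -1.12) had the largest decrease and *NDUFA10* (14306, 8198, 11525, and 6936 counts, -0.52) the smallest, all had both treated libraries below both untreated ones. Of the 12 that did not pass the threshold, *NDUFA3*, *NDUFB1*, *NDUFB4*, and *NDUFB5* passed with the cell line as a block, and 10 had a negative log2FC, from -0.66 (*NDUFA11*) to -0.19 (*NDUFV3*). The accessory subunits with a positive log2FC were *NDUFC2* (911, 764, 838, and 1181 counts before and after treatment in BT-16 and then in CHLA-266, log2FC 0.42, adjusted *p* = 0.273 in edgeR) and *NDUFA7* (54, 41, 45, and 54 counts, 0.21), and neither passed the threshold. Without treated BT-16 cells, *NDUFC2* was called higher, with a log2FC of 0.76, whereas without treated CHLA-266 cells its value was -0.01.

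Complex III gave 6 downregulated nuclear-encoded members of 9 (66.7%, against 19.1% of all genes), with a median log2FC of -0.76. *UQCRC1*, a large core protein on the matrix side (ENSG00000010256, chromosome 3, 48599002 to 48610976, minus strand), had 16974 counts before and 5946 after treatment in BT-16, and 12235 before and 5340 after it in CHLA-266. Its log2FC was -1.11 (SE 0.17, adjusted *p* = 0.00185 in edgeR), and no treated value came near an untreated one. *UQCRFS1*, the Rieske iron-sulfur protein (ENSG00000169021, chromosome 19, 29205320 to 29213151, minus strand), had 8191 (untreated) and 3432 (treated) counts in BT-16, against 6002 and 2432 in CHLA-266 (log2FC -1.03, SE 0.19, adjusted *p* = 0.00410 in edgeR). *UQCR10*, a small membrane subunit (chromosome 22, 29767369 to 29770413, plus strand), had 1020 (untreated) and 366 (treated) counts in BT-16, against 704 and 272 in CHLA-266 (-1.18, adjusted *p* = 0.0153 in edgeR). The small subunits *UQCR11* (-0.95), *UQCRQ* (-0.76), and *UQCRH* (-0.67) were downregulated as well. *UQCRC2*, the partner of *UQCRC1* in the core, did not pass the threshold, with 11157 counts before and 8392 after treatment in BT-16, against 9310 and 6004 in CHLA-266 (-0.26, adjusted *p* = 0.255 in edgeR). *UQCRB* (-0.25, adjusted *p* = 0.241 in edgeR) did not pass it either. *UQCRHL*, a near-identical copy of *UQCRH*, had 1226, 1070, 1722, and 940 counts and shares its sequence with *UQCRH*, so that the division of reads between them is uncertain.

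Complex IV had 6 tissue-restricted paralogs among its nuclear-encoded members, while complexes III and V each had 1 paralog (*UQCRHL* and *ATP5MGL*). Of all 16 nuclear-encoded members of complex IV 5 were downregulated (31.2%, median -0.41). The shares of all genes were 19.1%, or 27.3% with at least 10 counts in each library. These 5 were among the 10 widely expressed subunits (50%, median -0.59), namely *NDUFA4*, *COX7A2*, *COX5A*, *COX6B1*, and *COX7C*. The number was 8 with the cell line as a block. *NDUFA4*, once counted under complex I (ENSG00000189043, chromosome 7, 10931943 to 10940153, minus strand), had 5628 counts before and 2360 after treatment in BT-16, and 4569 before and 1805 after it in CHLA-266 (log2FC -1.04, SE 0.17, adjusted *p* = 0.00228 in edgeR). *COX7A2* (chromosome 6, 75237675 to 75250323, minus strand) had 5053 (untreated) and 2392 (treated) counts in BT-16, against 5069 and 1793 in CHLA-266 (-1.04, adjusted *p* = 0.00265 in edgeR). *COX5A* (chromosome 15, 74919791 to 74938083, minus strand) had 9493 (untreated) and 4520 (treated) counts in BT-16, against 7596 and 3581 in CHLA-266 (-0.83, adjusted *p* = 0.00579 in edgeR). For these 3 genes no treated value reached an untreated one. *COX7C*, the subunit with the highest level per length, had 43968 (untreated) and 26117 (treated) counts in BT-16, against 37245 and 21962 in CHLA-266 (-0.51, adjusted *p* = 0.0390 in edgeR), and *COX6B1* 7245 and then 4164 counts in BT-16, against 6271 and 3040 in CHLA-266 (-0.66, adjusted *p* = 0.0162 in edgeR). *COX4I1*, the regulatory subunit that starts assembly, had 33188, 20023, 26114, and 15939 counts (-0.47) and passed the threshold with the block alone (adjusted *p* in edgeR 0.0570 without and 0.00966 with it). *COX8A* (-0.75) and *COX5B* (-0.46) likewise passed with the block alone, with adjusted *p* values in edgeR of 0.0796 and 0.0930 without it and 0.0380 and 0.0223 with it. *COX6C* (-0.24) and *COX6A1* (-0.36) passed in neither fit.

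The paralogs of complex IV, which are known from muscle, testis, lung, or other tissues, had few counts, and none of the 6 passed the threshold. *COX4I2* had 0, 3, 0, and 6 counts before and after treatment in BT-16 and then in CHLA-266, *COX6A2* had 0, 5, 0, and 2, and *COX8C* had 0, 4, 0, and 13. *COX7B2* had 20 counts in treated BT-16 cells and 0 in the other libraries. For these 4 genes no fold change is given, as the untreated libraries held no count. *COX7A1*, the heart and muscle form, had 42, 60, 34, and 40 counts (log2FC 0.64, adjusted *p* = 0.532 in edgeR). *COX6B2*, known from testis, had 21 counts before and 106 after treatment in BT-16, against 19 and 42 in CHLA-266, a log2FC of 2.10 (SE 0.82, adjusted *p* = 0.0769 in edgeR, within 0.0279 to 0.139 over the alternatives that kept all libraries). DESeq2 called it higher (adjusted *p* = 0.0481), and treated BT-16 cells carried much of its value, which was 1.39 without them. In normalized counts, both treated libraries were above both untreated ones for 5 of the 6 paralogs, against 40.2% of all genes. For *COX4I2*, *COX6A2*, and *COX8C* this rests on 2 to 13 counts in a treated library. The median olfactory receptor went from 0 to 4.54 counts per kilobase in BT-16 and from 0 to 2.16 in CHLA-266. Summed, the 6 paralogs reached at most 3.42 normalized CPM, against at least 1280 for the 10 widely expressed subunits.

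Complex V showed the largest share of downregulated members, 15 of 18 (83.3%, against 19.1% of all genes), with a median log2FC of -0.80. The 3 genes *ATP5MC1*, *ATP5MC2*, and *ATP5MC3* encode the same mature subunit *c*, of which the rotating ring in the membrane is built, and all 3 were downregulated (median -1.22). *ATP5MC2* (ENSG00000135390, chromosome 12, 53632726 to 53677408, minus strand) had 4877 counts before and 1540 after treatment in BT-16, and 3324 before and 1250 after it in CHLA-266 (log2FC -1.30, SE 0.19, adjusted *p* = 0.00152 in edgeR). *ATP5MC1* (chromosome 17, 48892765 to 48895871, plus strand) had 4151 (untreated) and 1654 (treated) counts in BT-16, against 3636 and 1176 in CHLA-266 (-1.22, adjusted *p* = 0.00162 in edgeR), and *ATP5MC3* (chromosome 2, 175176258 to 175181710, minus strand) 6771 and then 2651 counts in BT-16, against 4753 and 1938 in CHLA-266 (-1.08, adjusted *p* = 0.00344 in edgeR). The standard errors of the 3 log2FCs overlapped. Parts of the coding sequences are similar, so that the division of reads among the 3 genes is uncertain.

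Of the 5 subunits of the catalytic F1 head 4 were downregulated (median -0.89). *ATP5F1D*, the delta subunit (chromosome 19, 1241746 to 1244825, plus strand), had 11222 counts before and 4230 after treatment in BT-16, against 8420 and 3551 in CHLA-266 (log2FC -1.08, SE 0.17, adjusted *p* = 0.00182 in edgeR). *ATP5F1B*, the catalytic beta subunit, had 37489 (untreated) and 16303 (treated) counts in BT-16, against 27056 and 11085 in CHLA-266 (-0.99, adjusted *p* = 0.00661 in edgeR). The alpha subunit *ATP5F1A* (44079, 19640, 34187, and 18085 counts, -0.80) and the gamma subunit *ATP5F1C* (10825, 4747, 8909, and 4209 counts, -0.89) were also downregulated. *ATP5F1E*, the small epsilon subunit, had 14309, 9372, 11012, and 5622 counts (-0.52) and passed only with the cell line as a block, with an adjusted *p* in edgeR of 0.0900 without it and 0.00410 with it. All 4 subunits of the peripheral stalk, which holds the head in place (*ATP5PB*, *ATP5PD*, *ATP5PF*, and *ATP5PO*), were downregulated, by log2FCs from -0.84 to -0.68. Of 5 other membrane subunits 4 were downregulated, among them *ATP5MK* (5410, 2810, 5172, and 2327 counts, -0.80, adjusted *p* = 0.00574 in edgeR), while *ATP5MG* (2318, 1385, 2200, and 1481 counts, -0.40) was not. *ATP5MGL*, a paralog of *ATP5MG*, had between 16 and 36 counts.

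In complex V, all 3 genes of subunit *c* and 4 of the 5 head subunits were thus downregulated, while *MT-ATP6* and *MT-ATP8* did not pass the threshold. In complexes I and III, downregulated nuclear-encoded subunits stood beside upregulated mitochondrial-encoded ones, and in complex IV beside 2 upregulated ones and 1 that did not pass the threshold (*MT-CO3*). Median log2FCs of the nuclear-encoded subunits, with the paralogs of complex IV left out, ranged from -0.59 in complex IV to -0.80 in complex V, and the difference between complexes has no test, because members are not replicates.

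The 4 members that are no subunits of these complexes have other roles. *ATP5IF1*, the inhibitor of ATP hydrolysis by complex V, had 37118 counts before and 17271 after treatment in BT-16, and 32181 before and 15830 after it in CHLA-266 and was downregulated (log2FC -0.81, SE 0.16, adjusted *p* = 0.00557 in edgeR). *COX7A2L*, which helps join complexes III and IV into supercomplexes, had 4578, 3835, 4266, and 3430 counts and a log2FC of -0.04 (adjusted *p* = 0.863 in edgeR), against -1.04 for its relative *COX7A2*. Its sign depended on the scaling. *NDUFA4L2*, a paralog of *NDUFA4* known to be induced by low oxygen, had 44, 109, 51, and 52 counts (0.98, SE 0.69, adjusted *p* = 0.287 in edgeR). The readthrough gene *ATP5MF-PTCD1* had between 8 and 16 counts.

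**Figure D4:**
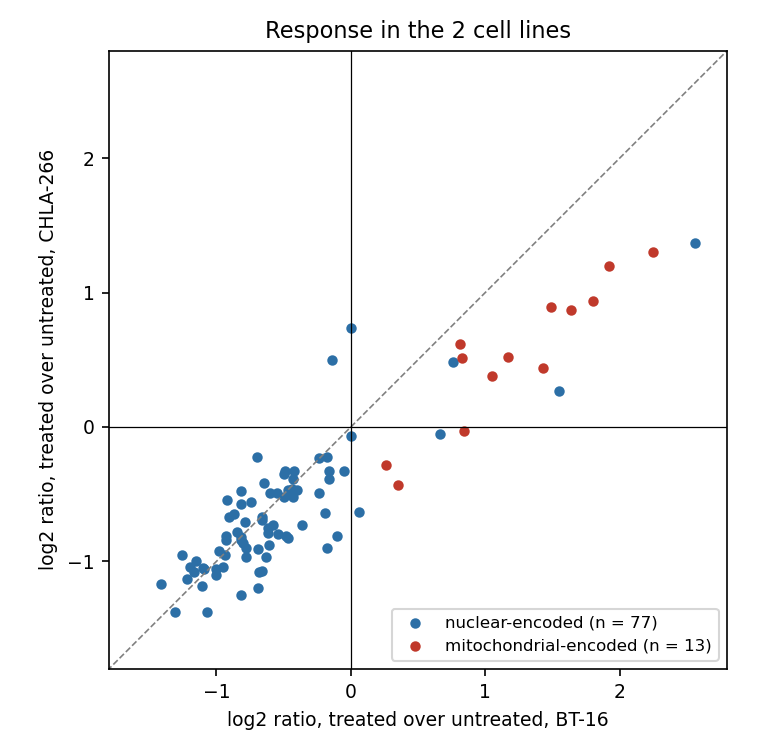
Log2 ratio of treated to untreated counts (TMM-normalized, 0.5 counts added) in BT-16 (horizontal) against CHLA-266 (vertical) for the 77 nuclear-encoded (blue) and 13 mitochondrial-encoded (red) members with at least 10 counts in every library, with the line of equal ratios dashed. Most blue points lie in the lower left (70 of the nuclear-encoded members are lower in both lines), and all red points lie below the dashed line.

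Few members differed between the lines themselves. In a model with treatment and cell line, 1 of the 95 members differed between CHLA-266 and BT-16, against 2.30% of all genes (0.836% higher and 1.46% lower in CHLA-266). This was *NDUFS8*, whose counts are given above, with a log2 difference of -0.57 (CHLA-266 minus BT-16, adjusted *p* = 0.0412 in edgeR). DESeq2 called no member. The next 4 members by adjusted *p*, *COX6A1*, *UQCRQ*, *ATP5F1E*, and *NDUFC1*, did not pass the threshold.

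Promoters of nuclear OXPHOS genes are known for sites of the factors NRF1, GABP (of the ETS family), and YY1. RefSeq promoter windows (GRCh38.p14, 250 bases before to 50 after a gene's start) were matched for 64 of the 82 nuclear-encoded members and searched on both strands. The letters CCGGAAG (GABP/ETS) were found in 28.1% of the 64 windows, against 10.9% of all 27305 promoters and 15.0% of the promoters of tested genes. The letters AAGATGGCG (YY1) were found in 12.5%, against 1.93% of all promoters and 3.05% of those of tested genes, and GCGCATGCG (NRF1) in 14.1%, against 2.13% and 2.89%. An E-box (CACGTG, the core of the sites MYC can bind) was found in 10.9% against 7.43% of all promoters, a CCAAT box in 34.4% against 35.7%, and the cyclic AMP response element TGACGTCA in 6.25% against 2.04%. Some of these runs can share up to 3 letters where they meet, and none contains another. Windows of the 40 downregulated members and of the 24 members that were not called held the letters of GABP/ETS (27.5% and 29.2%) and YY1 (12.5% and 12.5%) about equally often, and those of NRF1 in 12.5% and 16.7%. TGACGTCA was found in 4 of the 40 (*NDUFA10*, *NDUFB2*, *ATP5ME*, and *ATP5MC1*) and in none of the 24. As 2.84% of the promoters of tested genes hold it, 24 windows are too few for a comparison, and this difference was not tested. Below, the downregulated member of smallest adjusted *p* in each complex whose window holds letters of NRF1, GABP/ETS, or YY1 is shown, 5′ to 3′ on the gene's strand, with the found letters in capitals, to show where they lie relative to the start after base 250.
NDUFS6 (chr5:1801157-1801456, plus strand, NRF1): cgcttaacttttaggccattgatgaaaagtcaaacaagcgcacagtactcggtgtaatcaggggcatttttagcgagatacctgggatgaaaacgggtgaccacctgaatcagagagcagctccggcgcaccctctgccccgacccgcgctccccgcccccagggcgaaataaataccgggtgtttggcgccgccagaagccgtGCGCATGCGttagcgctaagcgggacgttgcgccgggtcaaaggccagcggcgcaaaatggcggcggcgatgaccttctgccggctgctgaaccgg
UQCRC1 (chr3:48609597-48609896, minus strand, YY1): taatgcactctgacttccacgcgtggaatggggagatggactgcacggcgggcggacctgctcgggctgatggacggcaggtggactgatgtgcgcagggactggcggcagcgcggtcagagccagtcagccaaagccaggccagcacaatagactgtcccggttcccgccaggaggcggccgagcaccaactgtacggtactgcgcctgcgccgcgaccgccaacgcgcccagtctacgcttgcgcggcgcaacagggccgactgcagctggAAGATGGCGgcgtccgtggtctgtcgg
COX6B1 (chr19:35648073-35648372, plus strand, GABP/ETS, read on the other strand): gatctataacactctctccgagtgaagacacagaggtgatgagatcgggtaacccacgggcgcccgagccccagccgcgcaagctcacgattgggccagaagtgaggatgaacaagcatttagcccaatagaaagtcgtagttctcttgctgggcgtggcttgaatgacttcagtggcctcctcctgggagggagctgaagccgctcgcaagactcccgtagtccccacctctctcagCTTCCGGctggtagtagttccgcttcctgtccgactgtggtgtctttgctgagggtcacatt
ATP5MC2 (chr12:53676034-53676333, minus strand, NRF1, read on the other strand): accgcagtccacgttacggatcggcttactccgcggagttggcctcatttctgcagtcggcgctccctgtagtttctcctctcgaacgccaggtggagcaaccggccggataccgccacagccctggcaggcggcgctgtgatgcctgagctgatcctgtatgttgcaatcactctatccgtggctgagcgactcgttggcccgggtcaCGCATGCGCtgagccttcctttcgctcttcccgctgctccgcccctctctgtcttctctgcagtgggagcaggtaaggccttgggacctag
In *NDUFS6*, *COX6B1*, and *ATP5MC2* the letters lie before the start, and in *UQCRC1* they lie after it, within the transcript. A match is a run of letters and does not show that a factor binds there.

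Genes that serve both sets of subunits were followed through lists chosen by function, with earlier results of these data known. The lists are not independent, as *TFAM*, *MRPL12*, and *HSPA9* each stand in more than 1, and *COX7A2L* is both a member and a complex IV factor. Of 16 complex I assembly factors 9 were downregulated, of 9 complex III factors 5, of 26 complex IV factors 10, of 5 complex V factors 2, and of 4 complex II factors 1, and none was upregulated. Against 19.1% of all genes and 27.3% of those with at least 10 counts in each library, these were 56.2%, 55.6%, 38.5%, 40.0%, and 25% of the lists, so that the share for complex II was near that of all genes. *ATPAF1*, a chaperone of the F1 head, had 5343 counts before and 1985 after treatment in BT-16, and 5032 before and 1636 after it in CHLA-266 (log2FC -1.27, adjusted *p* = 0.000679 in edgeR). *FOXRED1*, needed for complex I, had a log2FC of -1.14, *BCS1L*, which inserts the Rieske protein, of -1.04, and *COX17*, a copper chaperone for complex IV, of -1.08. The same held for the electron carriers. *CYC1*, cytochrome *c1* of complex III and not a member by symbol, had 11190 (untreated) and 3127 (treated) counts in BT-16, against 7163 and 2308 in CHLA-266 (-1.50, adjusted *p* = 0.00104 in edgeR), and *CYCS*, cytochrome *c*, 22847 and then 9994 counts in BT-16, against 22670 and 7814 in CHLA-266 (-1.11, adjusted *p* = 0.00167 in edgeR). Of the 4 subunits of complex II, which is encoded by the nucleus alone, *SDHB* (-0.76) and *SDHD* (-1.10) were downregulated.

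Most genes tested that copy and transcribe the mtDNA were lower after treatment, as were most proteins of the mitochondrial ribosome. Of 13 genes of mtDNA replication and maintenance 10 were downregulated (76.9%, against 19.1% of all genes, median -0.90). The decrease was largest for *DNA2*, a nuclease and helicase that also acts in the nucleus, with 5142 counts before and 546 after treatment in BT-16, against 5315 and 376 in CHLA-266 (log2FC -3.27, adjusted *p* = 1.33e-05 in edgeR). *MGME1*, a mitochondrial exonuclease, had 3170 (untreated) and 709 (treated) counts in BT-16, against 2830 and 516 in CHLA-266 (-2.05, adjusted *p* = 0.00018 in edgeR). Of 10 genes of mtDNA transcription 6 were downregulated (60%) and none upregulated (median -0.61). *TFAM*, which packages the mtDNA and starts its transcription, had 6796 counts before and 2374 after treatment in BT-16, against 7624 and 2100 in CHLA-266 (-1.45, adjusted *p* = 0.000543 in edgeR), and *MTERF3*, a repressor of mtDNA transcription, 1635 and then 731 counts in BT-16, against 1539 and 468 in CHLA-266 (-1.17, adjusted *p* = 0.00757 in edgeR). *POLRMT*, the mitochondrial RNA polymerase, named after its values were seen, had a log2FC of -0.47 (adjusted *p* = 0.0445 in edgeR).

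Of 23 genes that process or stabilize mitochondrial RNA 11 were downregulated (47.8%) and 1 was upregulated (4.35%), against 19.1% and 16.1% of all genes. The upregulated gene was *PRORP*, a subunit of the RNase P that cuts the precursors (971, 1326, 1091, and 1441 counts, log2FC 0.67, adjusted *p* = 0.0456 in edgeR). *PNPT1*, which degrades mitochondrial RNA, had 6138 counts before and 2217 after treatment in BT-16, against 7302 and 2269 in CHLA-266 (-1.34, adjusted *p* = 0.00122 in edgeR). *SLIRP* had 12564 (untreated) and 4507 (treated) counts in BT-16, against 9757 and 3529 in CHLA-266 (-1.22, adjusted *p* = 0.00105 in edgeR), while its partner in stabilizing mitochondrial messages, *LRPPRC*, named after its values were seen, did not pass the threshold (-0.28, adjusted *p* = 0.216 in edgeR). The mitochondrial ribosome, which translates the mitochondrial-encoded messages alone, had 54 of 76 proteins downregulated (71.1%) and none upregulated (median -0.84). *MRPL1* (8889, 2108, 6718, and 1573 counts, -1.83) and *MRPL24* (7469, 1978, 6338, and 1873 counts, -1.59) had the smallest adjusted *p* values of this list in edgeR (0.00018 and 0.000188). Of 12 translation factors 5 were downregulated (41.7%), among them *MTIF2* (-0.75) and *MTRFR* (-0.86), and *MTRF1L* was upregulated. Among all genes with at least 10 counts in each library, 27.3% were lower. Of 26 genes of protein import 14 were downregulated (53.8%), among them the outer-membrane channel *TOMM40* (-1.39) and *TIMM21* (-1.41), and *TIMM10B* was upregulated.

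Transcription factors and coactivators of mitochondrial genes were mixed. Of 12 tested 3 were downregulated (25%) and 1 upregulated (8.33%), with a median of -0.23, which is near the shares of all genes (19.1% and 16.1%, or 27.3% and 12.3% with at least 10 counts in each library). *NRF1*, whose protein activates many OXPHOS genes, had 1592 counts before and 542 after treatment in BT-16, against 1217 and 403 in CHLA-266 (log2FC -1.32, adjusted *p* = 0.00424 in edgeR), and the coactivator *PPRC1* 11488 and then 6275 counts in BT-16, against 11215 and 5905 in CHLA-266 (-0.65, adjusted *p* = 0.0135 in edgeR). *ESRRG*, a nuclear receptor with 3, 101, 8, and 22 counts, was the upregulated gene (3.63, adjusted *p* = 0.0411 in edgeR), at a low level, and did not pass with the cell line as a block (adjusted *p* = 0.0775 in edgeR). *MYC*, which also promotes mitochondrial gene expression, had 14275 (untreated) and 6804 (treated) counts in BT-16, against 11515 and 7505 in CHLA-266 (-0.59, adjusted *p* = 0.0289 in edgeR). In mitochondrial quality control, 6 of 15 genes were downregulated (40%), such as the chaperonin *HSPD1* (96036, 37259, 91979, and 35005 counts, -1.13). *PINK1*, a kinase that marks damaged mitochondria, was upregulated, from 719 to 1395 counts (BT-16) and from 582 to 1682 (CHLA-266) (1.51, SE 0.23, adjusted *p* = 0.00194 in edgeR).

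**Figure D5:**
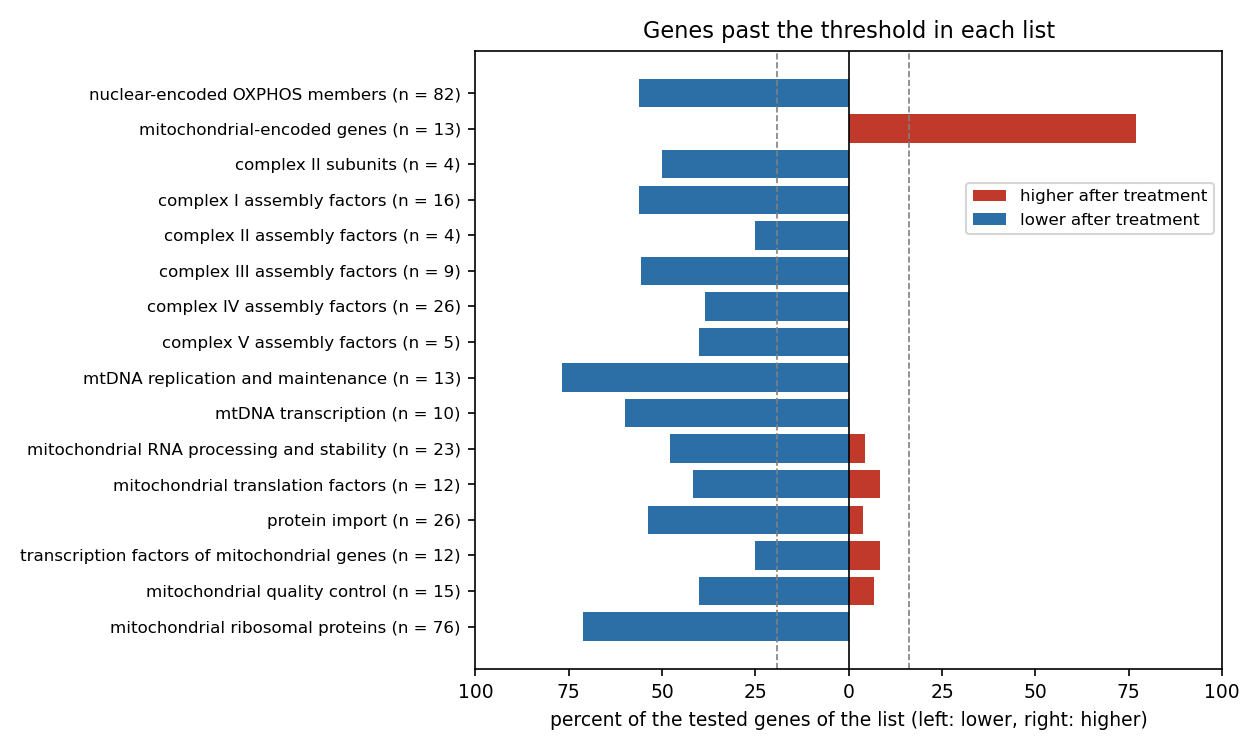
Percent of the tested genes of each list that passed the adjusted *p* threshold of 0.05 in edgeR, with lower genes to the left and higher genes to the right, n being the number of genes tested. Dashed lines mark the percentages among all genes (19.1% lower and 16.1% higher). The mitochondrial-encoded genes extend to the right alone (76.9%), and each other list extends mainly or wholly to the left.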

How the data were processed

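RNA of untreated and treated BT-16 and CHLA-266 cells was sequenced from 1 library per line and condition, with groups taken from the sample labels. After trimming, the authors used STAR with hg38 for the alignment and counted reads per gene. The deposited estimated counts are read counts per symbol without normalization, from which genes of the sex chromosomes had been removed. In 2 genes, 5 values were not whole and were rounded. The deposited log2 values come from the variance-stabilizing transformation of DESeq2 and were used in an alternative only. The annotation version, the strand setting, and the counting of read pairs are not given in the sources used here, so that precision from counting alone is not stated.

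All 18066 genes with a nonzero total were compared between conditions with edgeR 4.0.16 in R 4.3.3 (TMM factors, quasi-likelihood test, Benjamini-Hochberg adjusted p below 0.05), without the cell line in the model. The common dispersion fell from 0.140 to 0.0712 when the cell line entered the model as a block. Libraries of a line are paired by the line itself, and the check of this pairing gave a correlation of 0.256 for the deviations of its 2 libraries from their condition's mean (12620 genes, not independent of each other). Log2 ratios within a line used TMM-normalized counts with 0.5 added. Levels per kilobase used the length of all annotated exons of a gene joined (GENCODE 44 on hg38), not that of a single transcript. Promoters came from RefSeq (GRCh38.p14), of which the window nearest to the start of the canonical transcript was taken. The fit was tested on simulated data, where it recovered most changed genes when both lines shared a mean, but none when each line kept its own mean, while edgeR with the block and DESeq2 recovered most of them in both cases.

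The members, their roles, and all lists were chosen with earlier results of these data known. Named were all mitochondrial-encoded genes, per complex the 3 nuclear-encoded members of smallest adjusted p per direction with the same sign in both lines and the 2 with the highest level per length, all pairs of related isoforms, the 2 genes of smallest adjusted p of each list, and the 5 members of smallest adjusted p between the lines. Other genes are named to complete a group and were chosen after their values were seen. Alternatives were the block, DESeq2 1.42.0, DESeq2 size factors, upper-quartile scaling, library totals, TMM without mitochondrial-encoded genes, 2 filters on low counts, limma 3.58.1 on the deposited log2 values, a threshold on the fold change, and each library left out. Halved counts, for the case that both reads of a pair were counted, were added after seeing the data.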

Additional observations from a re-analysis of the deposited data

Results flagged for a closer look

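For 6 members the 2 cell lines moved in opposite directions, as log2 ratios of the treated to the untreated library. This difference between the lines was not tested, because each line had 1 library per condition. *MT-ATP6* had a log2 ratio of 0.84 in BT-16 and -0.03 in CHLA-266, *MT-ATP8* of 0.35 and -0.43, and *MT-CO3* of 0.26 and -0.28, and these 3 are the neighbouring mitochondrial-encoded genes that did not pass the threshold over both lines. *NDUFV2*, a core subunit of complex I, had a log2 ratio of 0.66 in BT-16 and -0.05 in CHLA-266. *NDUFA7*, with 41 to 54 counts in each library, had -0.14 in BT-16 and 0.50 in CHLA-266. *UQCRHL*, the near-identical copy of *UQCRH*, had 0.06 in BT-16 and -0.63 in CHLA-266.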

How the results depend on the processing

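The 10 upregulated mitochondrial-encoded genes and the 46 downregulated nuclear-encoded members kept their sign under every alternative run. With TMM, DESeq2 size factors, library totals, and upper-quartile scaling the all-gene median log2 fold change was 0.24, 0.31, 0.46, and 0.59, which lowers the size of each decrease by the shift. Medians of complex IV below are over all 16 nuclear-encoded members, paralogs included, for which the main value was -0.41. With upper-quartile scaling, 19 nuclear-encoded members were downregulated (6 of complex I, 2 of III, 3 of IV, and 7 of V, with medians of -0.30, -0.40, -0.06, and -0.45, and -0.32 over all). With library totals, 30 were (11 of complex I, 3 of III, and 3 of IV), and the medians of complexes I, III, IV, and V were -0.42, -0.52, -0.18, and -0.57, and -0.44 over all. With at least 10 counts in every library, 3 members of complex IV were downregulated, 35 of the 46 nuclear-encoded calls remained, 1 nuclear-encoded member (*COX6B2*) was upregulated, and the medians were -0.47 (I), -0.57 (III), -0.61 (V), and -0.49 (all). In DESeq2 1 nuclear-encoded member (*COX6B2*) was upregulated, no member differed between the lines, and the medians were -0.58 (I), -0.68 (III), and -0.60 (all), as with DESeq2 size factors. With limma on the deposited log2 values they were -0.48 (I), -0.65 (III), -0.67 (V), and -0.57 (all), and with the filter of edgeR -0.72 (III). The limma fit also ended the call of *MT-CO1* (0.78, adjusted p = 0.0667 in limma), and 9 of the 10 mitochondrial-encoded calls remained. Among genes past the adjusted p threshold, 5 mitochondrial-encoded genes and 14 nuclear-encoded members (5 of complex I, 3 of III, 2 of IV, and 4 of V) had an absolute log2 fold change of at least 1. The share of all genes past both limits is not given. Nor is it given for calls with upper-quartile scaling, library totals, the filters on low counts, or limma. These numbers of members therefore have no background.

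With the cell line as a replicate block, 56 nuclear-encoded members were downregulated, 8 of them of complex IV against 5 without it, and it ended no call of a member. With this block in DESeq2, medians were -0.58 (I), -0.68 (III), and -0.59 (all).

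With each library left out in turn, 5 to 10 mitochondrial-encoded genes were upregulated, the 5 without untreated BT-16 cells. Downregulated nuclear-encoded members numbered 29 to 51, the 29 also without untreated BT-16 cells, of which 10 to 20 belonged to complex I, 3 to 6 to complex III, 3 to 8 to complex IV, and 12 to 16 to complex V, and 0 to 1 were upregulated (*NDUFC2*, without treated BT-16 cells). Medians ranged from -0.74 to -0.62 over all, from -0.66 to -0.58 in complex I, and from -0.96 to -0.72 in complex III. In these fits a condition can rest on 1 library, which is assumed to vary like the others. The shares of all genes called in these fits are not given, so the numbers of members have no background.

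Single genes that changed sign had not passed the threshold. *MT-CO3* (main value -0.01) was 0.06 with DESeq2, its block, its size factors, and limma on the log2 values, 0.34 with upper-quartile scaling, 0.22 with library totals, 0.17 with at least 10 counts, 0.02 with the filter of edgeR, 0.01 with halved counts, and from -0.16 to 0.15 with a library left out (0.15 without untreated and 0.11 without treated CHLA-266 cells). *MT-ATP8* was 0.03 with DESeq2 and the block and with limma, 0.25 with upper-quartile scaling, 0.13 with library totals, 0.08 with at least 10 counts, and 0.36 without untreated CHLA-266 cells. *COX7A2L* was 0.03 in the DESeq2 fits, with its size factors, and with limma, 0.31 with upper-quartile scaling, 0.19 with library totals, and 0.15 with at least 10 counts. *COX6C* was 0.11 and *UQCRHL* 0.02 with upper-quartile scaling, *UQCRHL* 0.04 without untreated CHLA-266 cells, and *COX6A1* -0.86 to 0.02 with a library left out, the latter without treated CHLA-266 cells. Beyond the scaling, the cause of these changes was not tested.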
